A study of Caenorhabditis elegans with 2 samples.

Results

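The tRNA genes on the X chromosome of the nematode Caenorhabditis elegans are described here by where chromatin immunoprecipitation and sequencing (ChIP-seq) of CEH-83, a homeobox protein, placed its peaks. All genes of biotype tRNA on X in the Ensembl annotation of WBcel235 (the assembly also called ce11) were taken. They numbered 276 of the 612 tRNA genes on nuclear chromosomes (45.1%). The 270 tRNA genes of chromosomes II to V served for comparison, and the 22 mitochondrial ones were left out.

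The chromatin came from strain OP727, in which the unc-119(tm4063) mutation is carried together with the integrated transgene wgIs727, holding ceh-83::TY1::EGFP::3xFLAG and a rescuing unc-119(+). There was 1 group of 2 biological replicates, each of whole embryos of mixed stage and mixed sex, obtained by egg bleaching and labelled 1 hour. The sample description names an anti-GFP antibody and the antibody field reads ceh-83. Neither an untagged strain nor the control library was analysed here, the sources used here do not name the promoter that drives the transgene, and all signal is an average over the cells of an embryo. A tRNA gene is called bound below when the summit of a peak of the authors' irreproducible discovery rate (IDR) list lies in the gene or within 200 bp of it. Whether CEH-83 itself occupies these genes was not tested.

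Transfer RNAs carry amino acids to the ribosome and read codons through their anticodon. An isotype is the set of tRNAs for 1 amino acid. Their genes are transcribed by RNA polymerase III from a promoter that lies inside the gene: the A box and the B box are contacted by the assembly factor TFIIIC, which places TFIIIB just upstream of the start, and transcription ends in a run of T. In C. elegans many tRNA genes lie in introns of protein-coding genes, and identical copies are scattered over the chromosomes.

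Of the 276 tRNA genes on X, 109 were bound (39.5%, 95% Clopper-Pearson interval 33.7 to 45.5). Over all 612 nuclear tRNA genes the share was 39.5%, and over the 46890 annotated nuclear genes of every biotype it was 3.34%. On chromosomes II to V, 106 of 270 were bound (39.3%), so X exceeded them by 0.23 percentage points (95% Newcombe interval -7.92 to 8.37). Intervals cover counting error over genes only; the genes share sequences and neighbours and are not replicates. The 254 IDR peaks on X divided unlike those on II to V, but X alone held 276 tRNA genes and II to V together 270. On X, 102 of them (40.2%) had their summit at a tRNA gene, against 107 of 762 (14.0%) on II to V.

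The highest peak at any tRNA gene on X stood at C04A11.t1, a leucine tRNA gene with anticodon CAA and a short intron of its own. Its sequence, at chrX:13665555-13665673 on the plus strand, is shown with the B box GTTCNANNC in capitals (N is any base), because it is the highest member and holds both sequence features that are counted below. The 60 bp before it, at chrX:13665495-13665554, are shown with runs of CTCTC in capitals. Genes and flanks were read 5′ to 3′ along the tRNA gene's strand from the RefSeq sequence of WBcel235.
C04A11.t1: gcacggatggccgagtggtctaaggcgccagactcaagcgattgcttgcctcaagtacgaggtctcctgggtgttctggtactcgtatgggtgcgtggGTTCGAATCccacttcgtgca
C04A11.t1, 60 bp before: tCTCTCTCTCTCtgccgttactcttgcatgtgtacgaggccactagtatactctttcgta

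Identical copies of 1 tRNA gene can be bound at some places and not at others, and the largest such group on X was a proline tRNA gene with anticodon TGG. It had 13 copies on X, 5 of them bound, and 24 in the nuclear genome. The shared gene sequence is given for the highest bound copy, ZK899.t1, at chrX:9467729-9467800 on the minus strand, with the B box in capitals.
ZK899.t1: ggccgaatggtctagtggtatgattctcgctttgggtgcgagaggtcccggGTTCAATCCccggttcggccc
The 60 bp before the 5 bound copies follow, with CTCTC or its reverse complement GAGAG in capitals where they occur. Their positions are chrX:9467801-9467860 (minus), chrX:13512042-13512101 (minus), chrX:3969496-3969555 (plus), chrX:5801283-5801342 (minus) and chrX:5801412-5801471 (plus).
ZK899.t1, 60 bp before: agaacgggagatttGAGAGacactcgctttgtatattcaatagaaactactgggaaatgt
H06A10.t1, 60 bp before: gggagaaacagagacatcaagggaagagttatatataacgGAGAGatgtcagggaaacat
C16B8.t1, 60 bp before: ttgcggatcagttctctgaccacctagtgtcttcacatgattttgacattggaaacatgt
F46G11.t2, 60 bp before: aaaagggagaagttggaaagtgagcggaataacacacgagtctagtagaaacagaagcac
F46G11.t1, 60 bp before: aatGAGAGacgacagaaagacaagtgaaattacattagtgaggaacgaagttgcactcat
The flanks of 4 of the 8 unbound copies are shown as examples and not as the full set, at chrX:8969560-8969619 (minus), chrX:8969678-8969737 (plus), chrX:14437945-14438004 (minus) and chrX:15751360-15751419 (plus).
C48C5.t3, 60 bp before: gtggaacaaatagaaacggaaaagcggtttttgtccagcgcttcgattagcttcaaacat
C48C5.t1, 60 bp before: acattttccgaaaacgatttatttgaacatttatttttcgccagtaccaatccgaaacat
F23D12.t2, 60 bp before: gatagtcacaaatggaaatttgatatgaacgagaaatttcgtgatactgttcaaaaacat
ZK678.t3, 60 bp before: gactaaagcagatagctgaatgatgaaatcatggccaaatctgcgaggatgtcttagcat

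The signal of a region is the authors' own value and ranks regions within a list. At C04A11.t1 it was 1169 in the IDR list, 565 in replicate 1 and 601 in replicate 2, which was rank 10 in all 3 lists. The peak spanned chrX:13665533-13665688, narrower than the 444 bp of nearly all others. The next highest peak, in an intron of him-4, which encodes the basement membrane protein hemicentin, was shared by 2 alanine tRNA genes 86 bp apart. These genes, F15G9.t1 (anticodon TGC) and F15G9.t2 (anticodon AGC), had a signal of 988, with 457 in replicate 1 and 529 in replicate 2. Both peaks were among the 13 highest regions of each replicate.

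The other highest members spread over many amino acids. The isoleucine tRNA gene C42D8.t1 had an IDR signal of 913, with 407 and 505 in replicates 1 and 2. The valine tRNA gene R04D3.t2 had 910, with 410 and 499. The glutamate tRNA gene C28G1.t1, the only member that touches an exon of a protein-coding gene, had 865, with 426 and 449. In each of these 3, replicate 2 was the higher. The lysine tRNA gene W03G11.t1 had 839 (358 and 474), and the arginine tRNA gene F28H6.t1 had 804 (391 and 414). A second lysine tRNA gene, C33G3.t2, had 790 (351 and 436). The asparagine tRNA gene F41D9.t3, in an intron of sulp-3 (a sulfate permease family gene), had 747 and was the exception in order, with 407 in replicate 1 and 338 in replicate 2.

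Peaks at X tRNA genes were high among all peaks of the list. Their median signal was 388 (quartiles 287 and 514, range 190 to 1169; 102 peaks). The 152 other peaks on X had a median of 221, and the 107 peaks at tRNA genes of II to V had a median of 306. Of the 100 highest peaks of the whole list, 24 stood at X tRNA genes, 15 at tRNA genes of II to V and 2 elsewhere on X. The 109 bound genes had 99 different highest summits, since 10 summits were each shared by 2 genes.

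The 2 replicates ranked the bound genes alike. All 109 had a region within 200 bp in replicate 1's relaxed list and 108 in that of replicate 2, where the shares over all nuclear tRNA genes were 59.6% and 60.3%. The signals of the 2 replicates at these 108 genes had a Spearman correlation of 0.94, a description of points that share peaks and a control. At the 31 unbound genes with a region in both replicates it was 0.25. Within 100 bp of the IDR summit, 95 of the 109 bound genes had a summit among the 1258 highest regions of both replicates. The others had one in those of replicate 1 only (4), replicate 2 only (8) or neither (2). The rank differed most at the arginine tRNA gene F09B9.t2, which was 3667 in replicate 1 and 669 in replicate 2, and which had the lowest replicate 1 signal of all bound genes (74.8). The IDR list was drawn from both replicates, so this recurrence is part of how the peaks were chosen.

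**Figure D1:**
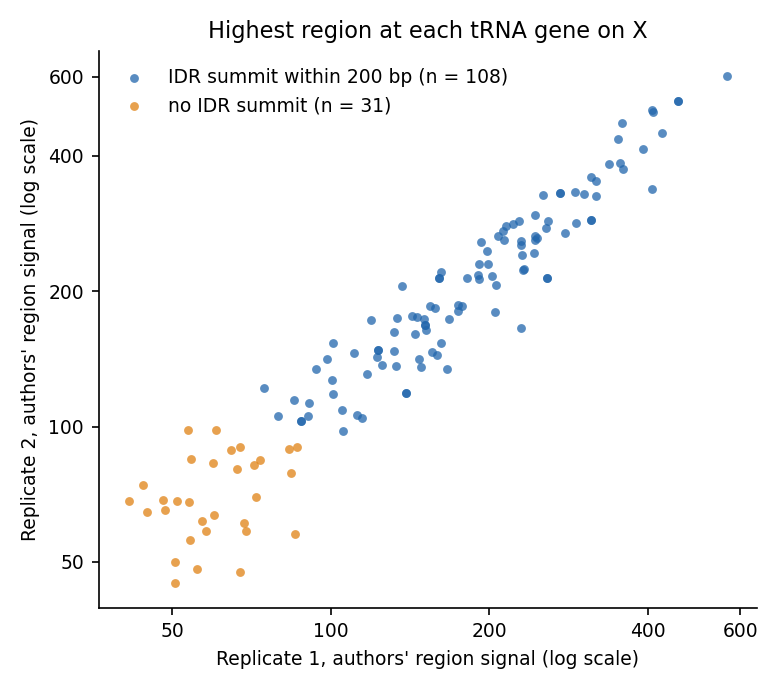
Authors' region signal at each tRNA gene on X in replicate 1 (x axis) and replicate 2 (y axis), both on log scales; each point is the highest region within 200 bp of a gene, blue for the 108 bound genes with a region in both replicates and orange for the 31 unbound ones. Bound genes run along the diagonal up to 565 and 601, and unbound genes lie below 100 in both replicates.

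The unbound genes were not all blank. A region was again counted at a gene only when its summit lay in the gene or within 200 bp. Of the 167 unbound genes, 98 (58.7%) had no region in the pooled list or in either replicate's list. The other 69 had a weaker region in at least 1 list. The pooled list, in which 60.8% of all nuclear tRNA genes had a region, had one at 50 of them, with signals from 82.0 to 172. The highest unbound genes were the valine tRNA gene F49E2.t1 (172 in the pooled list, 83.5 in replicate 1 and 89.3 in replicate 2) and the isoleucine tRNA gene C29F7.t3 (171, 86.1 and 89.9). The lysine tRNA gene F55F3.t1 came next (164, 60.6 and 98.0). Just inside the IDR list stood the phenylalanine tRNA gene K08B5.t1 (190, 79.4 and 105) and the glutamine tRNA genes F54F7.t1 and F54F7.t2, which share a peak of 192 (87.9 and 103). Replicate 1 gave K08B5.t1 less signal than the unbound F49E2.t1, so the edge of the bound set is narrow. A single unbound gene, the methionine tRNA gene C25F6.t1, had a region among the 1258 highest of a replicate (98.5 in replicate 1), which it shared with its bound neighbour C25F6.t2, and it had none in replicate 2.

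All 20 isotypes annotated on X had bound members. The share was highest for alanine (8 of 13, 61.5%, 31.6 to 86.1) and cysteine (4 of 7). Glutamate had 11 of 23, glycine 10 of 20, valine 7 of 14, methionine 4 of 8 and phenylalanine 3 of 6. It was lowest for lysine (3 of 18, 16.7%, 3.58 to 41.4), histidine (2 of 9) and isoleucine (3 of 13). The intervals of alanine and lysine overlap. Between these lay threonine with 6 of 14, aspartate with 5 of 12, tryptophan with 2 of 5, proline with 8 of 20, glutamine with 6 of 15, serine with 7 of 18, tyrosine with 3 of 8, leucine with 6 of 17, asparagine with 2 of 6 and arginine with 9 of 27. The 3 genes with no isotype in the annotation (C28G1.t5, F47E1.t3 and K02D3.t1) were unbound.

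Within an isotype, the anticodon families differed in count. The anticodon was read from the gene's anticodon stem and loop for 271 of the 276 genes. All 4 glycine genes with anticodon GCC were bound, with IDR signals from 228 at R04E5.t6 to 742 at F17H10.t1, and 6 of 16 with TCC were. Of the glutamate genes, 6 of 8 with TTC and 5 of 15 with CTC were bound. All 3 alanine genes with TGC were bound, against 4 of 9 with AGC. Leucine genes with AAG were bound in 2 of 10 cases, isoleucine genes with AAT in 2 of 11 and arginine genes with TCG in 1 of 6. These families are small and were singled out after their values were seen.

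The lysine genes with anticodon CTT stood out for weaker regions. Of 13, only W03G11.t1 was bound, and 9 of the others had a region below the IDR list, the highest at F55F3.t1. Pooled signals at 2 of them in introns of pix-1, which encodes an exchange factor of the PIX family, came from 1 shared region of 153 (K11E4.t5 and K11E4.t6). The bound W03G11.t1 had a signal of 839 on the same scale, and its nearest tRNA gene was 112554 bp away.

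**Figure D2:**
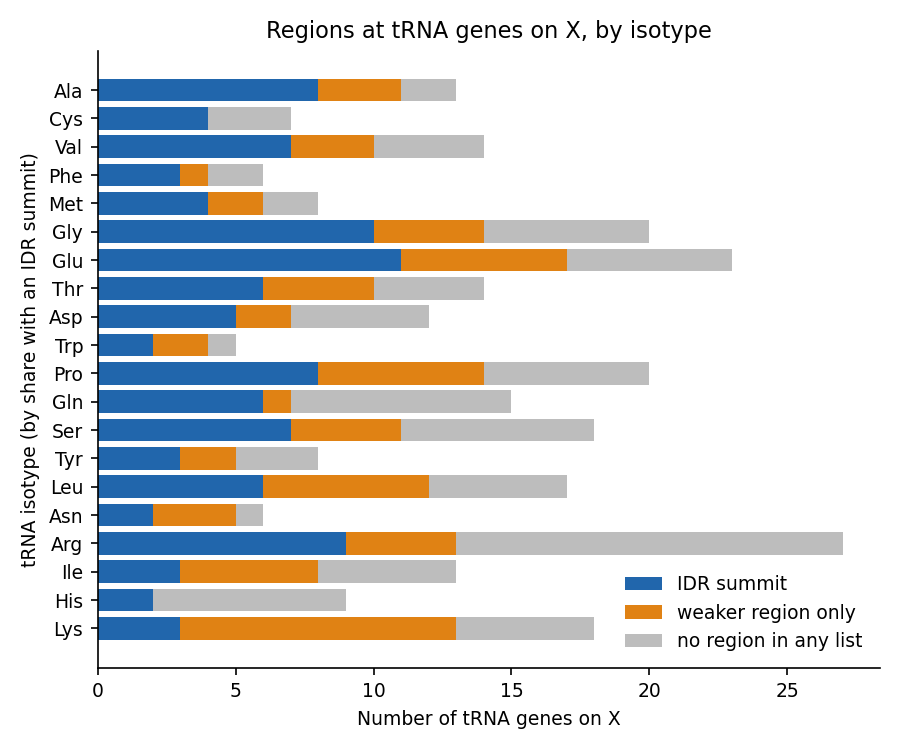
Number of tRNA genes on X in each of the 20 isotypes (x axis), split into genes with an IDR summit within 200 bp (blue), genes with a weaker region only (orange) and genes with no region in any list (grey), ordered by the share bound. Alanine at the top has 8 of 13 bound; lysine at the bottom has 3 of 18 bound and 10 with a weaker region only.

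The tryptophan genes include those known from classical genetics, in which mutated copies read a stop codon as an amino acid; they were looked up after the values were seen, apart from sup-7. At sup-7 the IDR signal was 387, with 205 in replicate 1 and 180 in replicate 2. At rtw-5 it was 266, with 122 and 143. Both stand far from any other tRNA gene. The neighbours sup-28 and sup-33, in introns of trk-1, had only weaker regions, with pooled signals of 144 and 93.0, and sup-21 had no region in any list. Looked up likewise, of the glutamate genes rte-1, rte-3 and rte-5, which are identical copies, rte-1 (408) and rte-5 (379) were bound and rte-3 had no region. The peak of rte-5 was shared with the serine tRNA gene F02D10.t2. Its summit lay 192 bp from the first base of rte-5 and 85 bp from that of F02D10.t2, each along the gene's strand.

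Isolated tRNA genes were bound more often than grouped ones. A gene with no other tRNA gene within 1000 bp was bound in 72 of 141 cases (51.1%, 42.5 to 59.6). One with such a neighbour was bound in 37 of 135 cases (27.4%, 20.1 to 35.7). The difference was 23.7 percentage points (95% Newcombe interval 12.2 to 34.3). The neighbour's own summit can fall within 200 bp of a grouped gene, and with summits counted only inside the gene the shares were 36.9% and 7.41%. That count leaves out a shared summit between 2 close genes, as at F15G9.t1 and F15G9.t2. By run of genes with gaps of at most 1000 bp, 29 of 54 runs had no bound gene, and 69 of 141 isolated genes were unbound. A run offers more genes for a summit to fall on. How far merged peaks lower the share of grouped genes was not tested. On II to V, 85 of 191 isolated genes (44.5%) and 21 of 79 grouped genes (26.6%) were bound. The tRNA genes on X were more often grouped: 51.1% were isolated there, against 70.7% on II to V.

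The share bound did not change evenly with distance. Of the 6 genes whose nearest tRNA gene lay under 100 bp away, 4 were bound, and each shared its peak with that neighbour. Of those with 100 to 499 bp, 28 of 102 were bound (27.5%), and with 500 to 1000 bp 5 of 27 (18.5%). The share was 18 of 44 (40.9%) at 1001 to 5000 bp, 18 of 32 (56.3%) at 5001 to 20000 bp and 36 of 65 (55.4%) above that. Among grouped genes, 23 of 102 whose nearest neighbour had the same isotype were bound (22.5%, 14.9 to 31.9), and 14 of 33 with a neighbour of another isotype (42.4%, 25.5 to 60.8). The interval of the first overlaps that of the second.

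**Figure D3:**
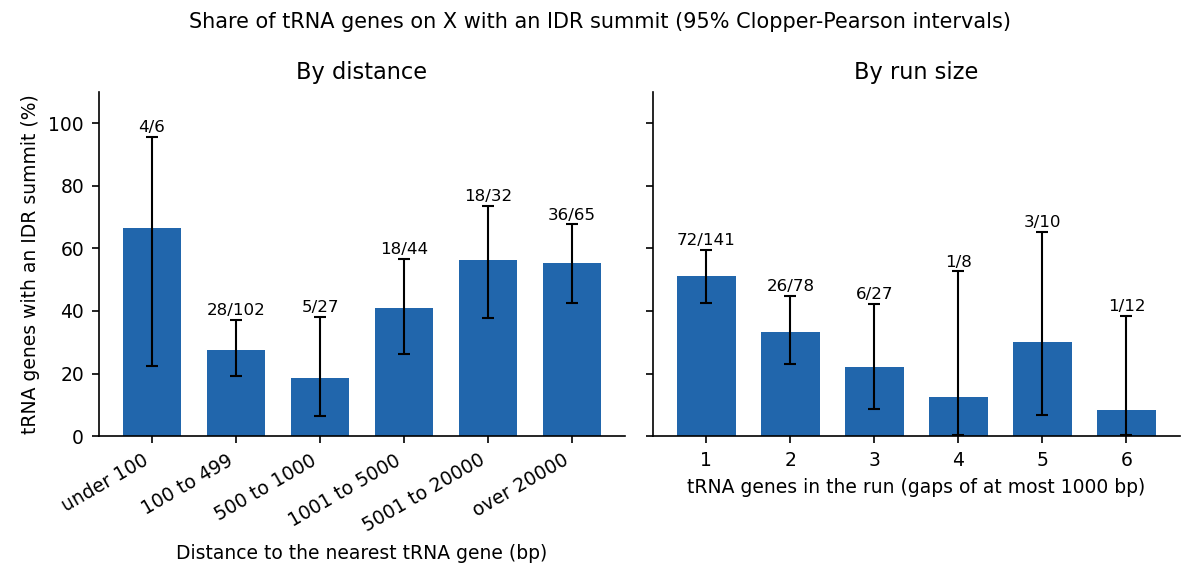
Share of tRNA genes on X with an IDR summit (y axis, percent) by distance to the nearest tRNA gene in bp (left) and by the number of genes in a run with gaps of at most 1000 bp (right); bars are shares, lines are 95% Clopper-Pearson intervals and labels give bound genes over all genes. The share is 55.4% beyond 20000 bp and 27.5% at 100 to 499 bp, and 51.1% for isolated genes against 8.33% in runs of 6.

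Grouped genes formed 54 runs with gaps of at most 1000 bp, of which 39 held 2 genes and 2 held 6. All members were bound in 10 runs, some in 15 and none in 29, and 41 runs were of a single isotype. The 2 runs with the most genes were nearly empty. The run F22F1.t2 to F22F1.t7 (chrX:8154445-8156707) holds serine, aspartate, methionine and isoleucine tRNA genes, and only the methionine gene F22F1.t6 was bound, at 535 in the IDR list, 257 in replicate 1 and 276 in replicate 2. The other 5 had no region in any list.

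The other run of 6, F28H6.t2 to F28H6.t7 (chrX:14135045-14137010), consists of 6 identical histidine tRNA genes on alternating strands, none with a region in any list. The flanks of 4 of them are shown because they are copies of each other, at chrX:14135380-14135439 (minus), chrX:14136196-14136255 (minus), chrX:14135814-14135873 (plus) and chrX:14136630-14136689 (plus).
F28H6.t7, 60 bp before: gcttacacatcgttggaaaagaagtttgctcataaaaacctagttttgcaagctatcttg
F28H6.t6, 60 bp before: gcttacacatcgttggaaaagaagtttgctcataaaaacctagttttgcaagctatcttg
F28H6.t3, 60 bp before: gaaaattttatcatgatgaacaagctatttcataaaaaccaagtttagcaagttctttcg
F28H6.t4, 60 bp before: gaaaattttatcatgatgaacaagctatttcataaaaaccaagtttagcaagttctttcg
In this run 5 of the 6 genes had under 50% of the 31-base words around them unique in the genome, and F28H6.t3 and F28H6.t4 had none, so 31-base words do not tell these copies apart. The flank shown for the first pair is the same in both genes, and likewise for the second pair. On all of X, 12 genes had under 50% unique words and 0 of them were bound, which allows a share of up to 25%; among the other 264, 109 were bound (41.3%). Of the 12, 11 had no region in any list, which cannot be told apart from reads that were not placed. The other, the isoleucine tRNA gene F47A4.t1, had weaker regions in all 3 lists (126 in the pooled list, 68.4 in replicate 1 and 61.0 in replicate 2).

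Runs of 5 had 3 of 10 genes bound, runs of 4 had 1 of 8 and runs of 3 had 6 of 27 (22.2%). In K01A12.3, whose introns hold 5 arginine and cysteine tRNA genes, K01A12.t2 and K01A12.t3 shared a peak of 257 (139 in replicate 1 and 118 in replicate 2). In ajm-1, an apical junction gene whose introns hold 5 glutamine tRNA genes, H08J11.t3 was bound at 283 (119 and 172) and the other 4 had no region. The proline run C16B8.t1 to C16B8.t3 (chrX:3969556-3970336), named after its values were seen, was bound throughout. Its peaks were 303 at C16B8.t1 and a shared 472 at the other 2 genes. Of the other 8 runs of 3, 5 had no bound gene and 3 had 1.

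Lying in an intron made no detectable difference. Of 95 tRNA genes in introns of protein-coding genes, 38 were bound (40%), and of 180 between genes, 70 (38.9%). The difference was 1.11 percentage points (95% Newcombe interval -10.7 to 13.3), and its sign changed under other settings. Isolated genes were bound in 30 of 59 cases inside introns and in 41 of 81 outside.

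Genes transcribed against their host were bound more often in these counts, within wide intervals. On the host's strand 16 of 50 were bound (32%, 19.5 to 46.7) and on the opposite strand 22 of 45 (48.9%, 33.7 to 64.2). The difference was -16.9 percentage points (95% Newcombe interval -34.9 to 2.73), which includes 0. Among isolated genes the counts were 13 of 32 and 17 of 27, and among grouped genes 3 of 18 and 5 of 18. By strand of the chromosome, 55 of 136 on plus and 54 of 140 on minus were bound.

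The 95 intronic genes lay in 67 host genes, 34 of which had a bound member. Besides K01A12.3 and ajm-1, the hosts with most tRNA genes had 3 each. In unc-58, a potassium channel gene, T06H11.t1 (serine, 201) and T06H11.t2 (arginine, 455) were bound and T06H11.t3 was not. The 3 tRNA genes each in deg-1 (a degenerin channel subunit), pix-1, srxa-9 (a chemoreceptor gene), tbc-12 (a TBC domain gene) and wrt-9 (a hedgehog-related gene) were all unbound.

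At isolated genes most summits stood on the tRNA gene itself, and at grouped genes most did not. Over all 109 the median position was 29 bp from the first base, along the gene's strand (quartiles -1 and 61 bp). Inside the gene stood 62 of 109 summits (56.9%), 29 stood upstream and 18 downstream. For the 72 isolated genes the median was 38 bp, and 52 were inside (72.2%). Of the 37 grouped genes, 10 had the summit inside. On II to V the median was 19 bp. A summit beside a grouped gene may belong to its neighbour, as at K01A12.t3, whose shared summit lay 251 bp from its first base.

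**Figure D4:**
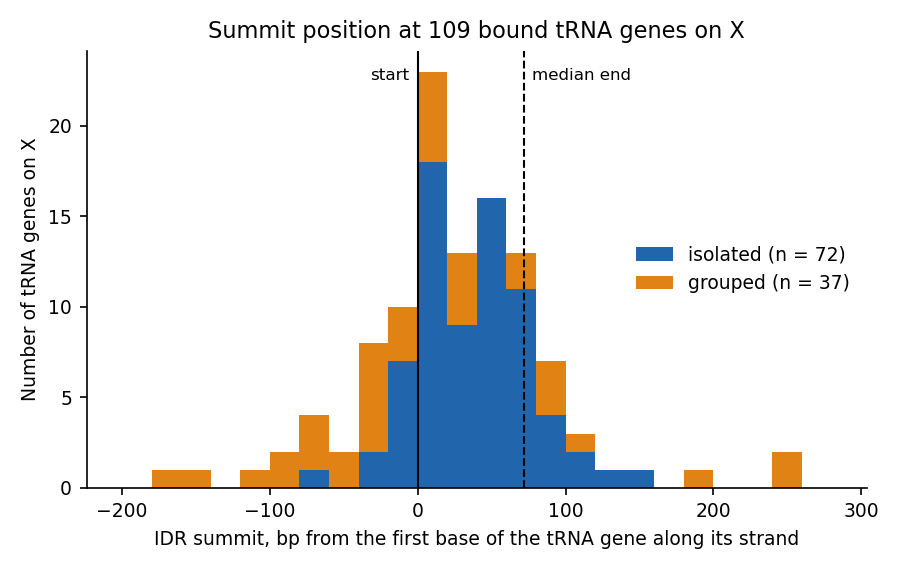
Position of the IDR summit in bp from the first base of the tRNA gene along its strand (x axis, 20 bp bins) against the number of bound tRNA genes on X (y axis), with isolated genes in blue and grouped genes in orange; the solid line marks the gene start and the dashed line the median gene length. Of the 72 isolated genes, 52 have the summit inside the gene, and all 72 lie between -65 and 154 bp.

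The B box and the A box pattern searched here were about as frequent in bound as in unbound members. The B box GTTCNANNC, searched on the gene's strand, was in 106 of 109 bound genes (97.2%) and in 162 of 167 unbound genes (97.0%). It was in 2.54% of windows of the same length moved 300 bp away. An A box written as TNGCNNAG was in 41.3% of bound and 40.7% of unbound genes. On II to V this pattern was in 52.8% of 106 bound and 39.6% of 164 unbound genes. A gene without this exact pattern was not shown to lack an A box. TTTT within 40 bp after the end was in all 109 bound and 164 of 167 unbound genes. In windows moved 300 bp away TTTT was in 46.4%. TATAA within 50 bp before the start, on the gene's strand, was in 8 bound (7.34%) and 13 unbound genes (7.78%), close to the 7.25% in moved windows. On either strand it was in 19 bound (17.4%) and 18 unbound genes (10.8%). On II to V the order was the reverse, with 3 of 106 bound (2.83%) and 12 of 164 unbound genes (7.32%).

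The sequence before the gene differed instead. In the 60 bp before the start, bound genes had a G+C content of 44.6% ± 7.14 (SD over 109 genes) and unbound genes 37.5% ± 8.28 (167 genes). In windows moved 300 bp away it was 32.2% and 34.5%, and inside the genes 58.1% and 57.9%. On II to V the same 60 bp had 48.7% ± 8.45 in bound and 42.2% ± 8.82 in unbound genes. G+C content can also alter how well a fragment is sequenced, and its part in the peaks was not tested.

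**Figure D5:**
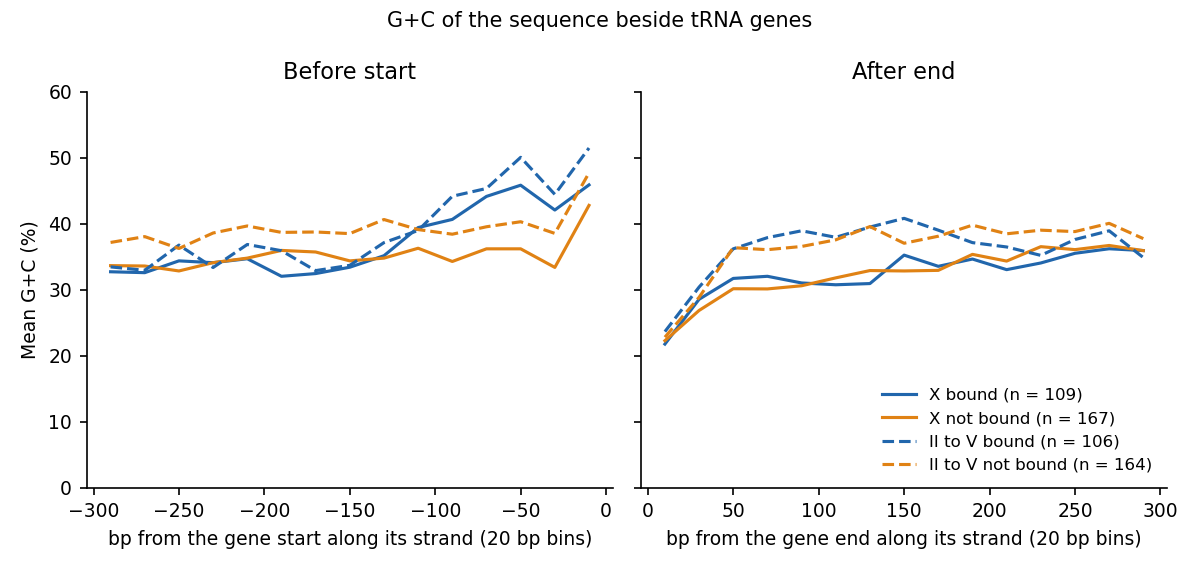
Mean G+C content in percent (y axis) in 20 bp bins before the start (left) and after the end (right) of tRNA genes (x axis, bp along the gene's strand), for bound (blue) and unbound (orange) genes of X (solid) and of II to V (dashed). The lines for bound and unbound genes separate before the start, where the 60 bp on X average 44.6% and 37.5%, and run close together after the end.

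All 1024 words of 5 bases were counted on the gene's strand in these 60 bp. CTCTC had the largest excess in bound genes on X (25.7% against 5.99%), and its reverse complement GAGAG had place 4 (20.2% against 2.40%). At the other end, AGTTT was in 6.42% of bound and 22.2% of unbound genes on X, but in 16.0% and 12.8% on II to V. The words at places 1019 to 1023, all rich in A and T, were rarer in bound genes on II to V too. Of these, AATTT was in 7.34% of bound and 22.8% of unbound genes on X, and in 9.43% and 29.9% on II to V. CTCTC or GAGAG occurred in 48 of 109 bound genes (44.0%) and 14 of 167 unbound ones (8.38%), a pair of words chosen from these same genes. Of the proline copies described above, 3 of the 5 bound flanks hold one, and so did 0 of the 8 unbound copies, not all of which are printed. Some unbound flanks resemble each other, such as those of F23D12.t2 and Y7A5A.t2, so they are not 8 separate cases. The flank of the unprinted unbound copy R04D3.t3 holds TCTCT, as does that of the bound C16B8.t1. That word had place 2 (27.5% against 8.98%). F46G11.t1 and F46G11.t2 share a summit, which lay 29 bp before F46G11.t2, whose flank holds neither word, and 161 bp before F46G11.t1, whose flank holds GAGAG. The 60 bp before all 19973 protein-coding genes held one in 10.4%. In windows moved 300 bp away it was 8.26% before bound and 4.79% before unbound genes, and in the 60 bp after the gene 2.75% and 2.99%. These comparisons were not matched for G+C content. It was 32.6% before protein-coding genes and 32.2% in windows moved from bound genes, against 44.6% in the flanks of bound genes. Whether the excess of these words is separate from the difference in G+C was not tested.

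The count of words used X alone, but GAGAGA was already known to be frequent at peaks of all chromosomes, so II to V is not independent support. There the pair was in 38 of 106 bound (35.8%) and 23 of 164 unbound genes (14.0%). The difference there was 21.8 percentage points (95% Newcombe interval 11.3 to 32.3), against 35.7 on X. Among isolated genes of X it was in 34 of 72 bound and 7 of 69 unbound genes, and among grouped genes in 14 of 37 and 7 of 98. Unbound genes with a weaker region had it as rarely (6 of 69) as those with no region (8 of 98). Read the other way, 48 of 62 X genes with the pair were bound (77.4%, 65.0 to 87.1) and 61 of 214 without it (28.5%, 22.6 to 35.1). The pair was chosen from these same genes, and the intervals do not cover that choice.

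Other bound genes had neither word before them. The 10 copies of an arginine tRNA gene with anticodon ACG, all of its nuclear copies, lie on X, and 6 were bound with IDR signals from 197 to 455. None of the 10 had CTCTC or GAGAG in the 60 bp before it. The flank of the highest bound copy, T06H11.t2 (chrX:10132618-10132677, plus), and that of its unbound neighbour T06H11.t3 (chrX:10133044-10133103, minus), 220 bp away, show this.
T06H11.t2, 60 bp before: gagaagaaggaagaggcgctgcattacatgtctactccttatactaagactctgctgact
T06H11.t3, 60 bp before: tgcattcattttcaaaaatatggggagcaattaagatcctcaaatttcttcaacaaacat
At T06H11.t2 the IDR signal was 455, with 233 in replicate 1 and 224 in replicate 2. T06H11.t3 had no summit within 200 bp in any list. However, the peak of T06H11.t2 spanned chrX:10132540-10132983 and overlapped T06H11.t3, which begins at 10132971. These 2 copies thus lie under the same peak and differ in the call through the 200 bp margin. Counting any overlap of an IDR peak with a gene gave 111 bound genes on X.

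Copies with identical gene sequence differed in whether they were bound. The 276 genes had 106 different sequences, and 33 of these occurred more than once on X, in 203 genes. In 27 of the 33 groups, with 185 genes, some copies were bound and others not. The glutamate group with anticodon CTC had 5 of 12 bound, led by M02F4.t2 with a peak of 601 (313 and 287) that it shares with the glycine gene M02F4.t1. The summit lay 94 bp before M02F4.t2 and 23 bp before M02F4.t1, so it was nearer the glycine gene. Another bound copy, rte-5, shares its peak with a serine gene, as given above. The glycine group with TCC, to which M02F4.t1 belongs, had 5 of 11 bound. Of the 10 isoleucine copies with AAT 2 were bound, and of the 10 lysine copies with CTT 1 was. Reads within the gene cannot be assigned among identical copies, and the sources used here do not say how the authors placed such reads. Of the X genes with a single nuclear copy, 15 of 57 were bound (26.3%, 15.5 to 39.7). The counts were 38 of 84 with 2 to 10 copies, 41 of 91 with 11 to 20 and 15 of 44 with 21 or more. Whether read placement shaped these counts was not tested.

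Along X, bound genes occurred from end to end. The share per 2 Mb was lowest at 14 to 16 Mb (8 of 34) and highest at 2 to 4 Mb (12 of 16). The stretch from 8 to 10 Mb held the most tRNA genes, 71, and 22 of them were bound (31.0%).

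The tRNA pseudogenes and the genes of the transcription machinery had no IDR summit, in counts too small to set them apart from other genes. Of 29 annotated tRNA pseudogenes on X, 0 were bound, which allows a share of up to 10.3% and so includes the 3.34% over all annotated genes. Of 10 genes for RNA polymerase III subunits and its factors, among them rpc-1 (the largest subunit), brf-1 (a TFIIIB subunit), tbp-1 (the TATA-binding protein) and tftc-1 (a TFIIIC subunit), 0 had an IDR summit from 1000 bp upstream to 200 bp downstream of the start. This allows a share of up to 30%, which includes the 3.02% over all protein-coding genes.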

How the data were processed

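ChIP-seq of CEH-83 was measured in 2 biological replicates. The authors deposited region lists on ce11 in which each region has a signal value and a summit offset in bp; per the deposited file listing, a relaxed list of 30000 regions was made for each replicate against a control and for both pooled, and the 1258 IDR peaks were derived from these. Not given in the sources used here were the aligner, caller, IDR threshold and read totals, so depth is unknown. Summits were matched to Ensembl release 115 genes; isotypes and symbols came from RefSeq and matched all 276 genes. Unique words were 31-base words within 100 bp of the gene's midpoint. Because there is 1 group, no test compares samples; shares carry Clopper-Pearson intervals, differences Newcombe intervals, and a count of 0 the limit that 3 counts set. Python 3.11.15, pandas 2.3.3 and SciPy 1.17.1 were used, and summit matching was tested on simulated data. The tRNA genes, lists and words were chosen with earlier results of these data known, among them that GAGAGA is frequent at the peaks. Named genes were the 10 highest bound, the highest of each isotype, the 3 on each side of the edge, the 3 largest runs, the 3 largest mixed groups of copies, the 5 main hosts with ties, and the 3 whose ranks differed most; not all are printed.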

Additional observations from a re-analysis of the deposited data

How the results depend on the processing

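The number of bound tRNA genes on X was 62 when the summit had to lie inside the gene; it was 125 with a margin of 500 bp, 96 with the higher-signal 50% of the IDR peaks, and 103 to 105 when the 1258 highest regions of a single replicate's list took the place of the IDR peaks. The difference between intronic and intergenic genes changed sign: it was -4.94 percentage points with no margin, -1.32 with the higher-signal peaks, -0.995 among genes with at least 50% unique words, and -1.99 to 1.73 with 1 replicate left out. That between X and II to V was -0.281 among genes with at least 50% unique words and -0.829 to 0.636 with 1 replicate left out, and 4.92 (interval -3.37 to 13.1) with a margin of 500 bp; every interval includes 0, and the cause was not tested. Isolated genes exceeded grouped ones by 13.3 to 29.5 percentage points over all alternatives, and genes on the host's strand stayed below those opposite (-8 to -18.9). The difference in CTCTC or GAGAG, with its alternatives chosen after seeing the data, was 21.8 on II to V and 35.0 to 42.5 under the others, all on X. Of 52 alternatives, 6 changed a sign and 2 moved a value outside the range set for it (1.5 times for a count, otherwise the main value's interval or quartiles). No paired analysis was possible because both replicates belong to 1 group. With unknown depth, an absent peak is only a peak not called.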
